A study of Rattus norvegicus with 46 samples.

Results

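Ischemic lesions of rats on a ketogenic diet were compared with intact brain of rats on the same diet, 14 days after middle cerebral artery occlusion (MCAO), an experimental stroke in which the artery that feeds the striatum and much of the cortex is blocked. The 27 libraries were those labelled MCAO and ketogenic diet (19 lesion libraries) or intact and ketogenic diet (8 libraries), out of 46 in the series. All came from young male Wistar rats, 3 months old at the start, with no genetic change named in the labels. The ketogenic food held 6431 kcal/kg, with fat giving 84% of it, protein 11% and carbohydrate 5%, and was given for 2 months before MCAO and 2 weeks after it. The only other groups used were on a standard diet (3227 kcal/kg, with fat at 11%, protein at 24% and carbohydrate at 65%), with 8 intact and 11 lesion libraries. The labels do not say from which brain region or hemisphere the intact tissue was cut, nor whether its rats were operated on, so place and injury cannot be told apart in these groups. They also do not say whether each library is a separate rat, so the p-values measure the spread between these libraries.

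Some 2 weeks after a stroke, dead tissue is being cleared by microglia and by macrophages from the blood, astrocytes wall off the core with a glial scar, and fibroblasts lay down a fibrous matrix inside it. Neurons and their synapses are lost from the core and survive in variable number at its border. A ketogenic diet moves the fuel supply of the brain from glucose towards ketone bodies made from fat in the liver. How large a lesion becomes after MCAO, and how much of its core and border a dissection takes, differs from animal to animal. The evenness of each gene's change across the 19 lesions was therefore read beside its size.

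The deposited counts are listed by Ensembl rat gene ID, and the files do not pair these IDs with gene names. None matched the RefSeq gene table at hand (0 of 30452 IDs; assembly GRCr8). Known markers of cell types were for this reason not read, the labelled tissue was not checked against its markers, and no more than 2 rising and 2 falling IDs are named. Library totals ran from 12911844 to 20420918 counts in intact brain and from 15290782 to 30601841 in lesions. The 20 most abundant genes held from 14.2% to 23.5% of an intact library and from 11.1% to 15.3% of a lesion library. In these bulk libraries, fewer cells of a type and less RNA per cell cannot be told apart.

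Most genes differed between lesion and intact brain, and the large changes were mostly rises. Of 15862 genes tested with edgeR's quasi-likelihood test, 5589 were higher in lesions (35.2%) and 5379 lower (33.9%) at a Benjamini-Hochberg adjusted p under 0.05. At least 2-fold changes numbered 2771 rises (17.5% of genes tested) and 1076 falls (6.78%). Among these calls, the median rise was 1.97 and the median fall -1.21 on the log2 scale, against 0.00 for all genes tested. The balance of rises and falls depended on how libraries were scaled: 51.0% of calls were higher with TMM scaling, which aligns the bulk of genes between libraries, and 69.1% with library totals only, which moved the median gene by 0.26 on the log2 scale. All directions given here are relative to the TMM scale.

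ENSRNOG00000007129 had the largest edgeR fold change among the rises present in every lesion with a mean of at least 1 CPM. Its TMM-scaled CPM (its count scaled to a fixed library size) was 0 in intact libraries 47, 49, 51, 53, 55, 57 and 59 and 0.0899 in intact library 45, where it had 1 count. In the 19 lesions it ran from 0.304 CPM in library 27 through a median of 4.38 to 27.5 CPM in library 7. Every lesion lay above every intact library, yet the lesions spanned a wide range: libraries 5, 7, 15, 33, 39 and 41 stood at 18.1, 27.5, 25.8, 25.0, 26.0 and 17.2 CPM, while the others reached at most 6.61. Intact brain averaged 0.0112 ± 0.0318 CPM (SD, n = 8), and lesions averaged 9.25 ± 10.2 CPM (SD, n = 19). The pooled ratio was 1201, with a 95% counting interval from 215 to 47466 that covers counting error only. The fitted log2 fold change of 9.24 (SE 1.46, edgeR adjusted p = 4.19e-06) depends on how the near-absence of intact counts is handled, and is no bound: it was 6.63 with limma voom, below the 7.70 of ENSRNOG00000054251 there, and 10.52 with edgeR without intact library 45.

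ENSRNOG00000054251 rose from a low but measurable level. Intact libraries 45, 47, 49, 51, 53, 55, 57 and 59 held 0.449, 0.195, 0.0785, 0.0659, 0.159, 0.287, 0.440 and 0.400 CPM. Lesions ran from 9.02 CPM in library 27 through a median of 75.4 to 150.1 CPM in library 33. The groups were far apart, with the lowest lesion still well above the highest intact library. Only 5 lesions, libraries 27, 31, 9, 25 and 29, were under 40 CPM. The log2 fold change was 7.99 (SE 0.67, edgeR adjusted p = 1.66e-10), with an intact mean of 0.259 ± 0.158 CPM (SD, n = 8) and a lesion mean of 64.9 ± 38.9 CPM (SD, n = 19). The 3 highest lesions held 29.2% of its summed lesion CPM, against 45.1% for ENSRNOG00000007129 and 15.8% for equal lesions.

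The IDs with the deepest falls were low in every lesion. ENSRNOG00000036831 stood at 8.54, 5.32, 5.42, 20.2, 11.7, 4.67, 6.25 and 5.07 CPM in intact libraries 45, 47, 49, 51, 53, 55, 57 and 59, and between 0.190 and 1.15 CPM in lesions, with a median of 0.774. Every lesion lay below every intact library, and the intact libraries differed more among themselves than the lesions did, with library 51 the highest. The log2 fold change was -3.45 (SE 0.24, edgeR adjusted p = 7.88e-12). ENSRNOG00000063840 stood at 18.4, 8.56, 12.6, 6.85, 8.05, 4.02, 7.65 and 7.00 CPM in the intact libraries, in the same order, and between 0.457 and 1.59 CPM in lesions, with a median of 0.818. Its groups did not overlap either, and its log2 fold change was -3.31 (SE 0.22, edgeR adjusted p = 3.91e-12). For both IDs library 15 was the lowest lesion and library 9 the highest. Library 27, lowest for both rising IDs, was at 1.01 and 1.22 CPM here, above the lesion median for each.

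**Figure D1:**
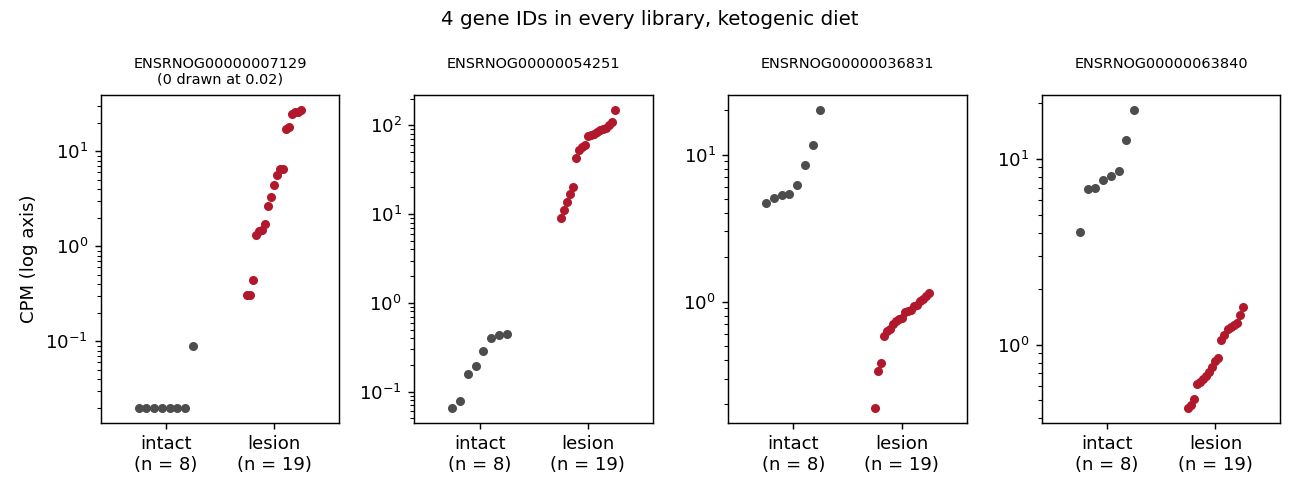
TMM-scaled CPM on log axes of 4 gene IDs in the 8 intact and 19 lesion libraries on the ketogenic diet, 1 point per library in rising order within a group. The groups do not overlap for any of the 4 IDs, and ENSRNOG00000007129 spreads from 0.304 to 27.5 CPM across lesions.

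About 3 in 10 of the large rises were present in every lesion. Of the 2771 rises of at least 2-fold, 803 (29.0%) had all 19 lesions above the highest of the 8 intact libraries; over all 15862 genes tested, 6.85% had such a separation upwards and 7.38% downwards. These 803 rises had a median log2 fold change of 2.51, and their median lesion level was 36.3 CPM, against 14.6 CPM for all large rises. Falls were separated more often, with 477 of 1076 (44.3%) having all 19 lesions below the lowest intact library. With up to 2 lesions inside the intact range allowed, the counts were 1762 of the 2771 rises and 749 of the 1076 falls. At the other end, 93 of the 2771 rises and 73 of the 1076 falls had under 10 lesions outside it.

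A single library set much of this count. In 526 rises exactly 18 lesions lay above intact brain, and in 424 of them the lesion left inside the intact range was library 27. Library 31 was that lesion in 37, library 9 in 15 and library 11 in 13. Without library 27, 1241 of 2842 large rises (43.7%) were present in every remaining lesion and 573 of 1208 large falls (47.4%) were. With libraries 27 and 31 both left out, a choice made after seeing the data, these were 1584 of 2912 rises (54.4%) and 720 of 1350 falls (53.3%). The gap between falls and rises seen with all 19 lesions was thus smaller without library 27, and not present without both. These 2 libraries were picked as the lesions with the fewest rises above intact brain, so leaving them out favours the share of rises. Nothing is read from the closing of the gap. With library totals only, 1237 rises and 184 falls separated fully, where that scaling called 3542 rises and 479 falls of at least 2-fold.

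**Figure D2:**
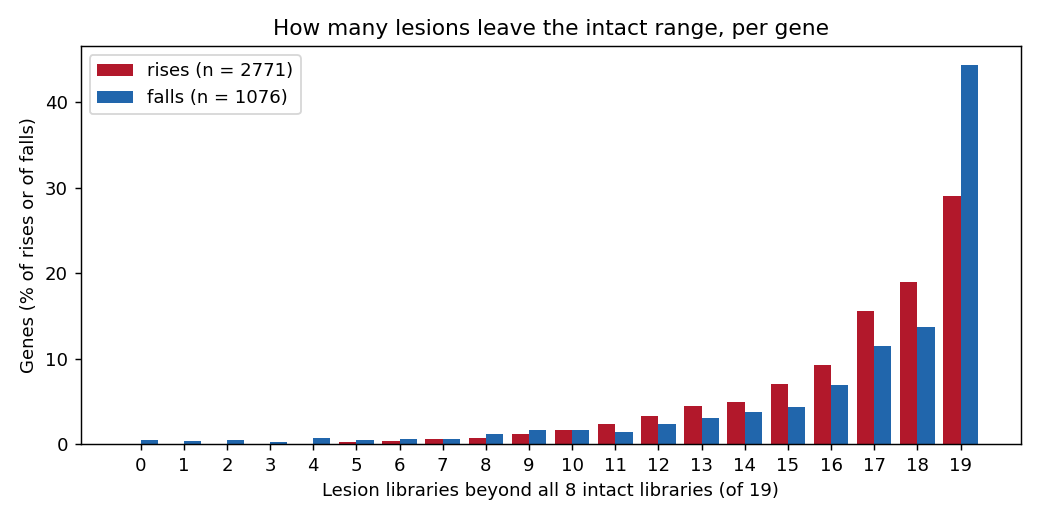
For each number of lesion libraries from 0 to 19, the share of the 2771 large rises (red) and of the 1076 large falls (blue) with that many lesions beyond all 8 intact libraries. Both pile up at 19, with 29.0% of rises and 44.3% of falls.

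The lesions themselves ranged from above intact brain in a minority of the rising genes to above it in nearly all of them. Library 27 was above all intact libraries in 1037 of the 2771 rises (37.4%), library 31 in 1550 (55.9%), library 29 in 2117 (76.4%), library 9 in 2156 (77.8%) and library 21 in 2172 (78.4%). The remaining 14 lesions ran from 85.0% in library 19 to 98.6% in library 15. The median log2 difference of these rises from the intact mean was 0.41 in library 27 and 0.69 in library 31, and it reached 2.55 in library 39. Intact libraries lay between -0.13 and 0.09 on this measure. These genes were chosen in the same libraries, so the values describe the lesions and test nothing.

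The falling genes put the same libraries lowest, with some differences further up. Library 27 was below all intact libraries in 672 of the 1076 falls (62.5%) and library 31 in 727 (67.6%), the fewest of the 19. The median log2 difference of the falls from the intact mean was -0.62 in library 27 and -0.71 in library 31. Intact libraries lay between -0.14 and 0.17 on that measure. Library 9 came next with 768 falls (71.4%), and in 46 of the 148 falls that missed by 1 lesion it was the lesion that stayed inside the intact range, against 63 for library 27. Library 9 also had the largest share of counts in its 20 most abundant genes of any lesion, at 15.3%. Library 25 was outside the intact range in 91.8% of rises but in 83.0% of falls. The part of the abundant genes in the fewer falls of library 9 was not tested.

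Of the 5 lesions closest to intact brain, 4 were deeper than the median lesion of 20093426 counts. Library 27 was the deepest of all at 30601841 counts, libraries 29, 31 and 9 held 24258513, 23288195 and 23262136, and library 21 held 19372222. Across the 19 lesions, the total and the number of rises above intact brain had a Pearson r of -0.68 (permutation p = 0.00205) and a Spearman rho of -0.37 (permutation p = 0.12, which did not pass), the only relation computed. Without the 2 libraries farthest from the median total, r was -0.44 (permutation p = 0.0737, which did not pass). Spearman rho without them was -0.17 (permutation p = 0.521, which did not pass). Both were weaker relations over fewer libraries. Library 15, with the most rises, held 24562681 counts, slightly more than library 29. The part of depth in the differences between lesions was not tested.

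**Figure D3:**
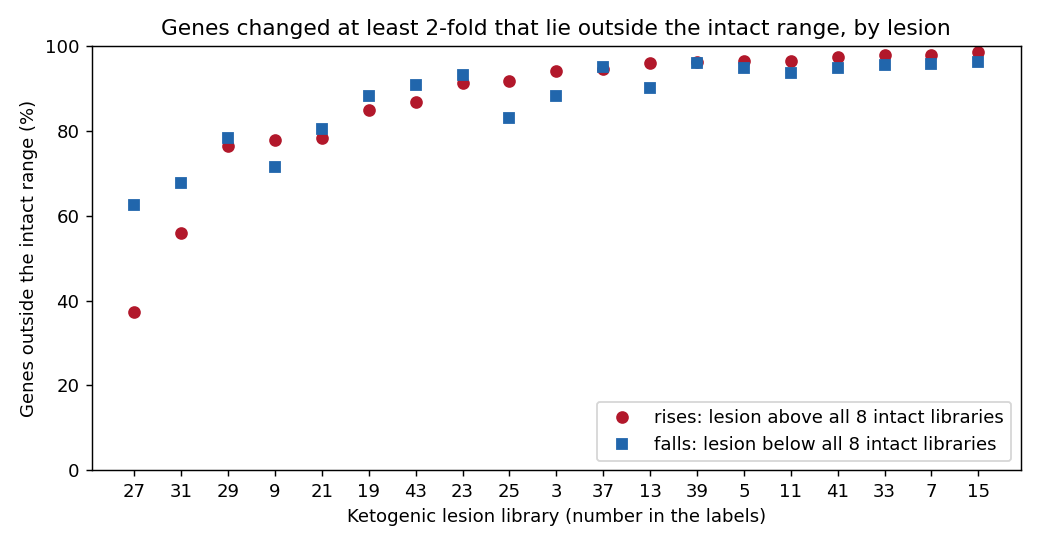
Share of the 2771 large rises above all 8 intact libraries (red circles) and of the 1076 large falls below all of them (blue squares) in each of the 19 lesion libraries, ordered by rises. Library 27 is lowest, at 37.4% and 62.5%, and 14 libraries exceed 80% on both.

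Larger rises were more often present in every lesion, and more often carried by a few. A rise was called carried by a few lesions where the 3 highest of the 19 held at least 50% of its summed lesion CPM. From 2 to 4-fold, 291 of 1414 rises (20.6%) were above intact brain in every lesion and 5 (0.354%) were carried by a few. From 4 to 8-fold these were 214 of 702 (30.5%) and 13 (1.85%), and from 8 to 16-fold 181 of 401 (45.1%) and 16 (3.99%). At 16-fold and above, 117 of 254 rises (46.1%) were present in every lesion and 34 (13.4%) were carried by a few. The median coefficient of variation between lesions went from 0.418 in the smallest rises to 0.800 in the largest. Being above intact brain in every lesion therefore did not mean equal lesions, and 4 rises met both definitions. Fold, separation and share were computed from the same lesion values, so these trends are in part built in and test nothing.

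Abundance sorted the rises as well. Of the 278 rises with a mean lesion level of at least 100 CPM, 158 (56.8%) were above intact brain in every lesion, and 2 were carried by a few. From 10 to 100 CPM, 518 of 1311 rises (39.5%) were present in every lesion, and from 1 to 10 CPM 120 of 972 (12.3%). Under 1 CPM it was 7 of 210 (3.33%). Low genes are counted with fewer reads, so overlap of the groups there includes counting error.

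Only 68 of the 2771 large rises (2.45%) were carried by a few lesions. They were strong and low: their median log2 fold change was 3.93, and their median level was 3.61 CPM in lesions and 0.172 CPM in intact brain. In 11 of them the intact group had at most 3 counts in all; with these set to that floor the median stayed at 3.93. Within such a gene the highest lesion stood at a median of 13.3 times the median lesion, against 2.31 times for all large rises. The pooled lesion counts of these genes had a median of 1469 and were at least 222. In 10 of the 68, the median lesion was under 2-fold of the intact mean. The share in the 3 highest lesions reached 76.9%; the rises just inside the threshold stood at 50.01% and 50.03%, and those just outside at 49.93% and 49.91%.

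The lesions that carried these rises were mostly the same ones. Libraries 5 and 39 were among the 3 highest in 35 of the 68 rises each (51.5%), library 7 in 30 (44.1%), library 15 in 26 (38.2%), library 33 in 24 (35.3%) and library 41 in 15 (22.1%). These 6 libraries filled 165 of the 204 places (80.9%), and in 51 of the 68 rises all 3 of the highest lesions were among them. They are also 6 of the 7 lesions with the most rises above intact brain. The commonest trio was libraries 5, 39 and 41, in 11 rises, and 29 different trios occurred. Libraries 9, 21, 25 and 31 were in none. Library 39 was the single highest in 19 rises, library 5 in 16, library 7 in 10 and library 15 in 8. Library 27, the lesion closest to intact brain, was the highest in 2.

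Libraries 39, 5, 33 and 15 were also the lesions most often among the 3 highest in the large rises as a whole, while other libraries held different shares of the 2 sets. Over all 2771 rises the same 6 libraries filled 65.1% of the places among the 3 highest lesions. These 6 were picked as the most frequent in the rises carried by a few, so their 80.9% there is raised by the choice. The 2 shares are therefore not a like comparison. Library 37 was among the 3 highest in 33.2% of all large rises but in 11.8% of the rises carried by a few, and library 11 in 29.7% against 8.82%. Libraries 7 and 41 went the other way, from 20.3% to 44.1% and from 8.95% to 22.1%. No test was made of these differences, since the genes share the same 19 libraries.

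**Figure D4:**
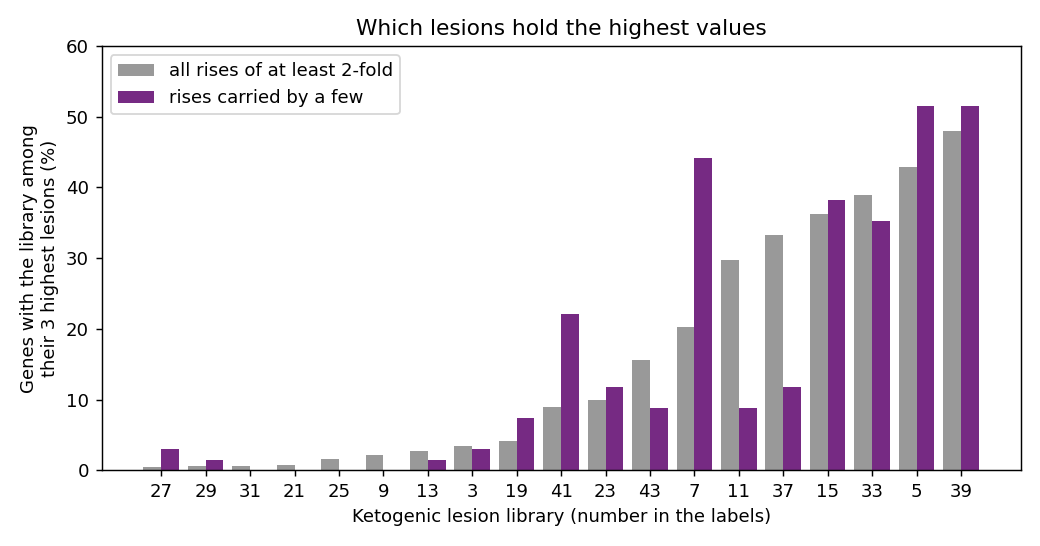
For each lesion library, the share of the 2771 large rises (grey) and of the 68 rises carried by a few lesions (purple) in which it is among the 3 highest lesions. Libraries 39 and 5 lead both, and libraries 7 and 41 are more frequent among the carried rises.

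**Figure D5:**
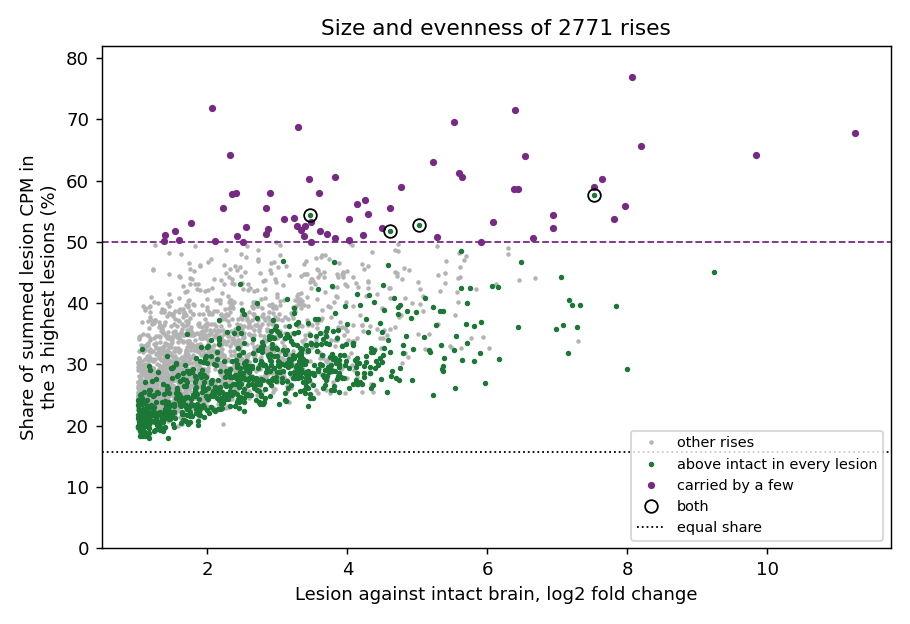
Share of the summed lesion CPM held by the 3 highest of 19 lesions against the log2 fold change, for the 2771 large rises. Green points are above intact brain in every lesion, purple points are carried by a few (at least 50%, dashed line), circles mark the 4 genes that are both, and the dotted line is the 15.8% of equal lesions.

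Some calls did not hold when 1 library was left out. Of the 2771 large rises, 49 lost the call in this way. Among them were 7 of the 68 carried by a few and 0 of the 803 present in every lesion. The low-count filter was applied anew each time, and a gene that no longer passed it counts as lost. How many of the 49 left through the filter was not counted. Counting also those that fell under 2-fold, 232 of the 2771 left the set of large rises, among them 9 of the 68 and 23 of the 803. The count of rises carried by a few was itself sensitive to single lesions: it was 111, 118, 113 and 120 without libraries 15, 33, 41 and 7, and from 66 to 93 without any other library. Lesions varied more than intact brain in most genes. The coefficient of variation was larger between lesions than between intact libraries in 78.4% of large rises and in 74.6% of large falls, against 66.4% of all genes tested, with medians of 0.525 against 0.299 and of 0.396 against 0.222. Over all genes tested the medians were 0.272 and 0.183.

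The standard-diet libraries, none of which entered these choices, gave a second reading of the same genes. Of the 803 rises present in every ketogenic lesion, 799 were tested there, 729 (91.2%) were called at least 2-fold higher and 633 (79.2%) had all 11 lesions above all 8 intact libraries; over all genes tested on that diet these shares were 15.3% and 11.5%. Of the 477 falls present in every ketogenic lesion, 469 were tested, 296 (63.1%) were called at least 2-fold lower and 375 (80.0%) had all 11 lesions below all intact libraries, against 5.39% and 10.6% of genes tested. Among the tested rises the median log2 change was 2.25 in standard-diet and 2.50 in ketogenic libraries, and among the tested falls it was -1.07 and -1.24. The genes were picked by size and separation in the ketogenic libraries, which enlarges the ketogenic medians. No difference between the diets is read from these medians.

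The rises carried by a few ketogenic lesions were uneven on the standard diet too. Only 45 of the 68 passed the low-count filter there, and low genes pass it through the group where they are high, so all 68 were read without that filter, a choice made after seeing the data. They had at least 89 counts over the 11 lesions, with a median of 700.5. In 9 of them (13.2%) all 11 lesions were above intact brain, against 43.9% of the 2771 large rises. Over all genes tested on the ketogenic diet it was 11.3%. Their 3 highest standard-diet lesions held a median of 66.5% of the summed CPM, where equal lesions would give 27.3%, the large rises had 40.7% and all genes tested on the ketogenic diet had 34.2%. The share was at least 50% in 65 of the 68 (95.6%), against 18% of the large rises and 4.24% of all genes tested on the ketogenic diet. The median coefficient of variation between standard-diet lesions was 1.09 for these genes and 0.415 for the large rises.

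Whether the lesion response differed between the diets was tested as the interaction of diet and lesion over all 46 libraries. With edgeR 0 of 16140 genes were called (0%), and 719 (4.45%) had an unadjusted p under 0.05; DESeq2 called 2 and limma voom with quality weights 13. Among the rises present in every ketogenic lesion, DESeq2 called 1 and limma voom 1; among the falls present in every lesion, limma voom called 1; among the 68 rises carried by a few, neither called any. In edgeR, 28 of the 803 rises, 56 of the 476 falls tested and 0 of the 68 had an unadjusted p under 0.05. These genes were picked in ketogenic libraries that enter the interaction, so nothing is read from these counts. ENSRNOG00000007129 had an interaction of 2.59 (log2, SE 2.69) and ENSRNOG00000054251 one of 0.93 (SE 0.88), and for ENSRNOG00000036831 and ENSRNOG00000063840 it was -0.84 (SE 0.49) and -0.52 (SE 0.38), each with an edgeR adjusted p of 1. These SEs are approximate and derived from the same tests, and the lack of a call does not show equal responses. On the standard diet ENSRNOG00000054251 averaged 0.514 ± 0.403 CPM in intact brain (SD, n = 8) and 68.1 ± 29.0 CPM in its lesions (SD, n = 11); ENSRNOG00000036831 averaged 6.37 ± 5.55 and 1.03 ± 0.549 CPM. For the latter, 1 or more intact libraries reached down into the lesion range, at 1.35 CPM against a highest lesion of 2.09.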

How the data were processed

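PolyA RNA was measured in brain tissue, and libraries were made with a directional kit, per the labels' protocols. Build mRatBN7.2 and the tools HTSeq 0.7.2 and HISAT2 2.0.5 are named in the submitters' processing notes. Strand handling and gene annotation are not given in the sources used here; reads of overlapping or antisense genes may be mixed. The authors deposited raw counts per Ensembl gene ID, with no normalization; the series table and the sample files differed in 0 cells, and 39 columns of that table belong to no sample described here and were not used.

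Groups were taken from the sample titles. The tests were run with edgeR 4.0.16 under R 4.3.3 (filterByExpr, TMM, robust quasi-likelihood F test), the lesion contrast on its own 27 libraries and the interaction on all 46, with p-values adjusted over all genes tested; the procedure was tested on simulated data. Each SE of an edgeR log2 change is approximate: the size of the change divided by the square root of its F statistic. It therefore restates the test and is no separate measure of error. Evenness was read from TMM-scaled CPM. Permutation tests were two-sided with 100000 resamples. Alternatives used DESeq2 1.42.0, limma 3.58.1, other scalings and filters, and leaving out libraries. Replicates all differed by more than sampling noise (chi-square per degree of freedom of at least 14.56 for each pair).

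The IDs named are the first 2 of the rises present in every lesion and the first 2 falls by fold change, with a mean of at least 1 CPM. The comparison, lists and thresholds were chosen with earlier results of these data known. The 41 gene lists by symbol, the marker correlations and the promoter motifs that had been planned were not run, since the IDs have no names here.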

Additional observations from a re-analysis of the deposited data

Results flagged for a closer look

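Each named ID and each per-library measure was checked for an intact library far from the other 7, in 8 sets of values, and chance flags about 1 set in 20. ENSRNOG00000007129 was at 0.0899 CPM in intact library 45 and at 0 in the others, a difference of 1 count; without that library its fitted log2 fold change was 10.52 (edgeR adjusted p = 1.12e-04), against 9.24 with it. ENSRNOG00000036831 was at 20.2 CPM in intact library 51, against 11.7 in the next; without that library its log2 fold change was -3.12, and the call held (edgeR adjusted p = 1.64e-11).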

How the results depend on the processing

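With library totals only, the genes called lower numbered 3357, those at least 2-fold lower 479, the rises present in every lesion 1237 and the falls present in every lesion 184. Without a low-count filter 1646 genes were at least 2-fold lower. For the interaction, limma voom (quality-weighted) gave 13 calls and DESeq2 gave 2. With a share of at least 40% or 60%, 301 or 16 rises were carried by a few lesions. At a minimum of 4-fold, 512 rises and 25 falls were present in every lesion. Without lesion libraries 27 and 31, an alternative added after seeing the data, these were 1584 and 720. Leaving out each library in turn, also added later for the evenness counts, gave from 791 to 1241 rises present in every lesion, the highest without library 27, and from 66 to 120 rises carried by a few, the highest without library 7. The other counts stayed within 1.5 times their value in the alternatives run, and the 4 named IDs kept their direction and call in all 35. The cause of these shifts was not tested. No paired analysis was run, since the labels name no pairs and the lesion and intact libraries share no sample number. Whether any rat gave both tissues cannot be read from these numbers. The planned marker correlations, with their alternatives, were not run. Depth limits the low genes most: a rise under 1 CPM rests on few reads per library.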
